A study of Mus musculus with 6 samples.

Results

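Satellite cells, from which skeletal muscle renews itself, were examined for the genes of the SIX-EYA-DACH network: *Six2*, *Six4* and *Six5*, *Eya1* to *Eya4*, and *Dach1* and *Dach2*. These 9 genes were taken by symbol, and 8 of them passed the filter of 5 or more reads in 2 or more libraries, as did 17152 genes in all. The cells were α7-INTEGRIN+ and CD34+ and lacked CD31, CD11b, SCA-1 and CD45, and were sorted straight from uninjured hindlimb muscle of C57BL/6J mice aged 6 to 8 weeks. Of the 6 RNA-sequencing libraries, 3 came from wild-type littermates (*Pax7WT*) and 3 from homozygous mutants (*Pax7KR*), in which an acetylated lysine of the transcription factor PAX7 is replaced by arginine. The allele was made by CRISPR/Cas9 in zygotes, so every cell of the animal carries it, not the satellite cells alone. The sex of the animals is not stated in the sources used here.

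SIX-family proteins are homeodomain transcription factors that bind DNA but activate transcription poorly by themselves. EYA proteins do not bind DNA directly. They join SIX-family proteins as transactivators and carry a protein tyrosine phosphatase domain, while DACH proteins are corepressors in the same complexes. In muscle, SIX-EYA complexes act with PAX3, PAX7 and the myogenic regulatory factors, and SIX-binding sites called MEF3 lie in muscle genes such as *Myog*.

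Depth ran from 17822367 to 27908054 estimated reads per library, and the common biological coefficient of variation within a genotype was 13.75% by gene. *Pax7* lay between 1409 and 1666 CPM in the 6 libraries, where CPM is the read count scaled to a fixed normalized library size. Summed over 9 markers of satellite cells, the level was 6783 to 7251 CPM in *Pax7WT* and 7054 to 7322 CPM in *Pax7KR* cells. Markers of other cells were also read. Smooth muscle and pericyte genes summed to 2397 to 2739 CPM in *Pax7WT* and 2246 to 2458 CPM in *Pax7KR* cells, but *Notch3* alone, which satellite cells also express, held 2052 to 2474 CPM of this, with *Rgs5* at 26.5 to 51.0 CPM. Erythroid genes summed to 187 to 369 CPM in *Pax7WT* and 324 to 547 CPM in *Pax7KR* cells, with means of 255 and 406 CPM. Endothelial genes summed to 264 to 335 CPM in *Pax7WT* and 296 to 368 CPM in *Pax7KR* cells. Of this, *Tek* held 184 to 231 CPM and *Pecam1*, the gene of CD31, 20.7 to 50.4 CPM. Fibro-adipogenic, tenocyte, Schwann and glial, and myofibre genes each summed to 102 CPM or less in every library. Immune genes summed to 7.72 to 11.1 CPM in *Pax7WT* and 8.41 to 12.5 CPM in *Pax7KR* cells, with *Cd3e* at 0 reads. The genotypes overlapped in all 9 marker lists, and the part of other cells in the levels below was not tested. In bulk RNA, fewer cells of a type and less RNA per cell cannot be told apart.

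Some of the short stretches of sequence that separate transcripts of *Eya2*, *Dach1* and *Eya1* are shown first. Salmon, the program that assigned the reads, splits the reads of a gene between transcripts that share most of their exons, so few bases can decide where reads are placed. *Eya2* (ENSMUSG00000017897, chromosome 2, 165595032 to 165771727, plus strand, GRCm38) has a short processed transcript, ENSMUST00000128280, of 369 bases in 2 exons of 140 and 229 bases. Its only bases outside the exons of the main coding transcript ENSMUST00000088132 are its first 39, in capitals here, which are intronic in the main transcript and run into a coding exon in lower case (chr2:165769186-165769284, plus strand):
Eya2 ENSMUST00000128280 start: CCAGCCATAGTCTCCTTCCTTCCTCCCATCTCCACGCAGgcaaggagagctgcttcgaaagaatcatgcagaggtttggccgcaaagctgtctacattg
*Dach1* (ENSMUSG00000055639, chromosome 14, 97786853 to 98169765, minus strand) has 2 coding transcripts of nearly the same length. ENSMUST00000071533 holds an additional coding exon of 156 bases, or 52 codons, that ENSMUST00000069334 skips (chr14:97916393-97916548, minus strand, all in capitals):
Dach1 additional exon: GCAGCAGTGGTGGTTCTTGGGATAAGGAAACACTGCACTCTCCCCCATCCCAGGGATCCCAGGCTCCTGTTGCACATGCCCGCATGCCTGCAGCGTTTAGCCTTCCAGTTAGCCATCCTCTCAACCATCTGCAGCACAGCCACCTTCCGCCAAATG
In *Eya1* (ENSMUSG00000025932, chromosome 1, 14168954 to 14310235, minus strand), 15 coding bases (5 codons) of ENSMUST00000027066 are absent from ENSMUST00000168081, shown in capitals (chr1:14270828-14270842, minus strand) with 20 bases of the transcript, lower case, on either side. ENSMUST00000168081 in turn has 3 coding bases that ENSMUST00000027066 lacks:
Eya1 ENSMUST00000027066: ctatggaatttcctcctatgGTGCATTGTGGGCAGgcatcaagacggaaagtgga
These transcript sequences are those of a GENCODE release on GRCm38.

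The level of each gene per length was read as TPM, a share of all transcripts scaled by transcript length, which allows genes to be set side by side. *Eya4* was at 41.6 TPM (range 38.4 to 47.2 over the 6 libraries), *Six2* at 37.4 TPM (27.9 to 49.7) and *Eya1* at 35.1 TPM (28.5 to 43.9), and these 3 genes overlapped in their ranges. *Six5* followed at 18.7 TPM (15.3 to 21.7) and *Eya3* at 18.2 TPM (17.0 to 18.9), also with overlapping ranges. *Eya2* lay at 13.8 TPM with the widest spread for its level, from 7.84 to 21.4 TPM. *Dach1* was at 6.50 TPM (5.65 to 7.82) and *Six4* at 5.41 TPM (4.21 to 6.76), again overlapping. Only between *Eya1* and *Six5*, and between *Eya2* and *Dach1*, did neighbours in this order keep apart in all 6 libraries. For *Eya2* and *Dach1* the gap was narrow, between 7.84 and 7.82 TPM. The 2 coding transcripts of *Eya2* alone, at 7.37 to 9.79 TPM, overlapped *Dach1*. Of the genes tested, 78.2% had a lower mean TPM than *Eya4* and 39.0% a lower mean TPM than *Six4*.

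**Figure D1:**
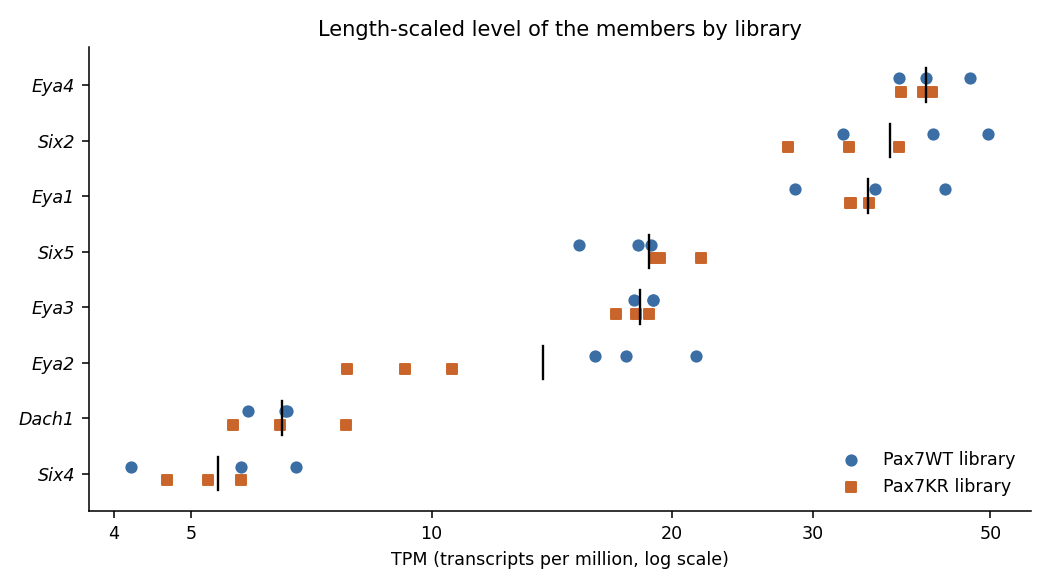
Level of each measured gene per length, in TPM on a log axis, with circles for the 3 *Pax7WT* libraries, squares for the 3 *Pax7KR* libraries and a bar at the mean of all 6. *Eya4*, *Six2* and *Eya1* lie highest, at means of 41.6, 37.4 and 35.1 TPM, and circles and squares separate for *Eya2*, at 16.0 TPM and above against 10.6 TPM and below, and for *Six5* in the other direction, at 18.8 TPM and below against 19.0 TPM and above.

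*Dach2* (ENSMUSG00000025592, chromosome X, 113297510 to 113836386) had 0 reads on its 8 transcripts in all 6 libraries. A count of 0 allows up to 3 reads, or 0.108 to 0.169 CPM depending on the library. *Six3* and *Six6*, related genes of eye and forebrain development, had 0 reads in all libraries as well. Such floors cover counting error only.

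Whether the acetylation-deficient PAX7 changes the network was asked by comparing the genotypes over all genes with edgeR's quasi-likelihood test. In this fit 0 genes had an adjusted p under 0.1, which is 0% of those tested, and 803 genes, or 4.68%, had an unadjusted p under 0.05. None of the 8 measured network genes had an unadjusted p under 0.05, and their smallest value was 0.0546 (adjusted p = 0.992). Their log2 fold changes ran from −0.35 to 0.15, with 7 of 8 below 0 and a median of −0.147, beside 51.0% below 0 and a median of −0.004 over all genes tested. The 95% confidence intervals of all 8 genes lay between −0.75 and 0.37 on the log2 scale. In CPM, 1 gene of the 8 (*Eya2*) kept the genotypes apart, against 10.3% of all genes tested, and in TPM 2 did (*Eya2* and *Six5*), against 12.5%. The labels do not tie the samples to single animals, so p-values measure the spread between these samples, which may be partly technical.

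**Figure D2:**
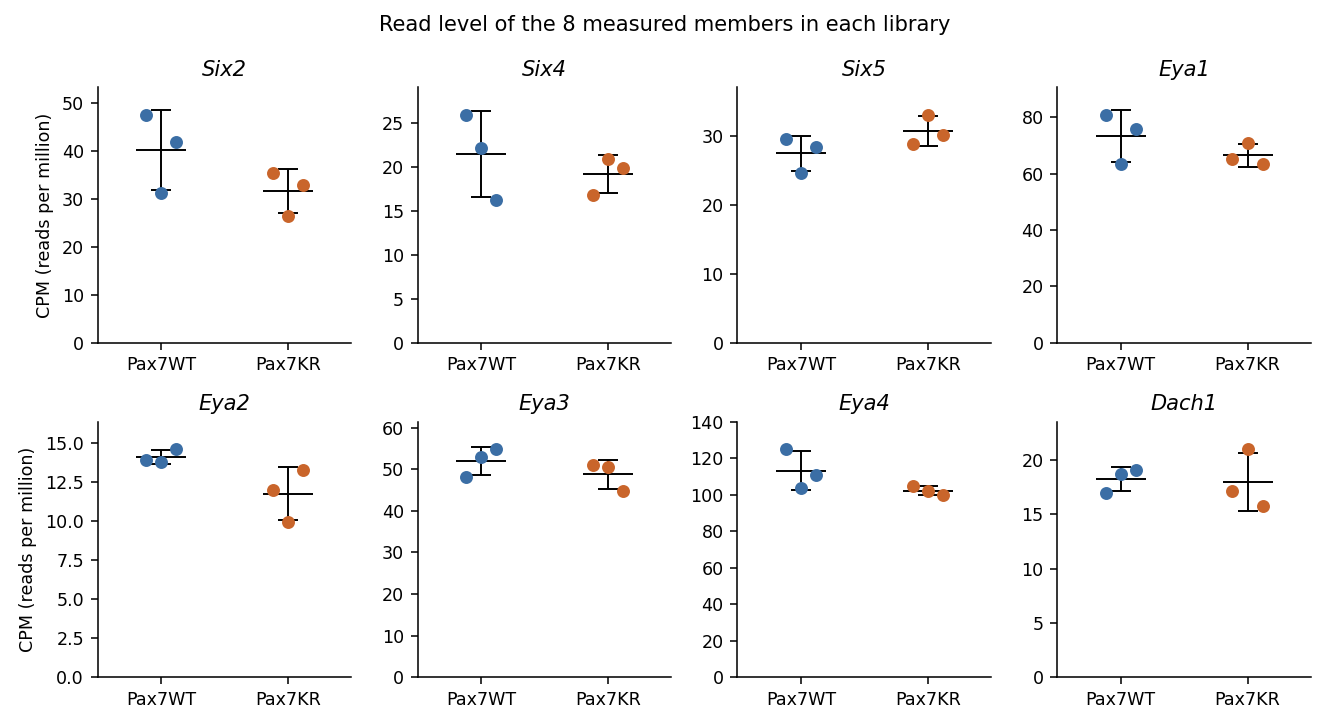
Normalized reads (CPM) for the 8 measured genes, with 1 point per library and the mean ± SD (n = 3) of each genotype as a bar. All genes but *Eya2* have overlapping points, and *Eya2* lies at 13.8 CPM and above in *Pax7WT* and at 13.3 CPM and below in *Pax7KR* libraries.

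Of the homeodomain genes, *Six2* lay lower on average in *Pax7KR* cells, but within the spread of the samples. *Six2* (ENSMUSG00000024134, chromosome 17, 85684277 to 85688274, minus strand) is best known as a regulator of progenitor self-renewal in the kidney. It was at 47.6, 31.2 and 41.9 CPM in the *Pax7WT* libraries and at 35.5, 26.5 and 33.0 CPM in the *Pax7KR* libraries, on 552 to 1295 reads. The second *Pax7WT* library fell among the *Pax7KR* values, so the groups overlapped. The log2 fold change was −0.35 (SE 0.17, edgeR adjusted p = 0.992, with an unadjusted value of 0.0785). With each library left out it ran from −0.50 (without *Pax7WT* replicate 2, adjusted p = 0.606 from edgeR) to −0.21 (without *Pax7WT* replicate 1). With no filter on low reads the adjusted p of *Six2* passed the cut-off (0.0619).

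*Six4* (ENSMUSG00000034460, chromosome 12, 73099609 to 73113456, minus strand) takes part in the early steps of muscle formation. It was at 25.9, 22.1 and 16.2 CPM in *Pax7WT* and at 16.8, 20.9 and 19.8 CPM in *Pax7KR* cells. The first *Pax7WT* library was the highest and the third the lowest of all 6. The log2 fold change of −0.16 (SE 0.16, edgeR adjusted p = 0.998) became 0.00 without *Pax7WT* replicate 1.

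*Six5* (ENSMUSG00000040841, chromosome 7, 19094594 to 19098549, plus strand) neighbours *Dmpk*, the gene of the repeat expansion in myotonic dystrophy. It was the 1 measured network gene with a log2 fold change above 0. Its level was 29.5, 24.6 and 28.4 CPM in *Pax7WT* cells and 28.9, 33.1 and 30.1 CPM in *Pax7KR* cells, with overlapping groups. In TPM the groups lay just apart, at 18.8, 15.3 and 18.1 against 19.0, 21.7 and 19.3. The log2 fold change was 0.15 (SE 0.10, edgeR adjusted p = 0.992).

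A MEF3 site spelled TCAGGTTTC was sought on both strands of promoter windows from 250 bases before to 50 bases after the start of each gene. These windows were RefSeq's, on GRCm38.p6, and 7 of the 9 network genes had an entry, all but *Eya1* and *Eya2*. The motif was in 141 of 32851 windows of the same length, or 0.429%. Among the 10 windows of network genes it was in 1, that of *Six4*, on the reverse strand, and among the 22 windows of 14 target genes it was in 1, that of *Myog*. Both are shown with the motif or its reverse complement in capitals (chr12:73113325-73113354, minus strand, and chr1:134289910-134289939, plus strand):
Six4: tggcctggggGAAACCTGAtcggccagatc
Myog: agaggggggcTCAGGTTTCtgtggcgttgg
The match began 99 bases before the RefSeq start of *Six4* and 84 bases before that of *Myog*. In the GENCODE annotation, however, the *Six4* match lies inside the gene. Its main transcript there, ENSMUST00000043208, starts at 73113425 on the minus strand, so the match is downstream of that start. It is a match of letters, and no binding was measured in these libraries.

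Of the EYA genes, *Eya4* was read most deeply, with 1844 to 3411 reads per library. *Eya4* (ENSMUSG00000010461, chromosome 10, 23102963 to 23350786, minus strand) is known from inherited deafness and heart muscle disease. It was at 125, 104 and 111 CPM in *Pax7WT* and at 105, 102 and 100 CPM in *Pax7KR* cells. The lowest *Pax7WT* value lay just below the highest *Pax7KR* value. The log2 fold change of −0.15 (SE 0.07, 95% interval −0.31 to 0.00) had the smallest p of the network, 0.0546 (adjusted p = 0.992 from edgeR).

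*Eya1*, mutated in branchio-oto-renal syndrome, was at 81.0, 63.3 and 75.9 CPM in *Pax7WT* cells. In *Pax7KR* cells it was at 65.1, 71.1 and 63.5 CPM. The groups overlapped, since the second *Pax7WT* library was the lowest of all. The log2 fold change was −0.14 (SE 0.09, edgeR adjusted p = 0.992). With each library left out it ran from −0.24 (without *Pax7WT* replicate 2, adjusted p = 0.716 from edgeR) to −0.07 (without *Pax7WT* replicate 1).

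*Eya3* (ENSMUSG00000028886, chromosome 4, 132638987 to 132724765, plus strand) is an EYA family member with broad expression. It was at 48.2, 52.9 and 54.8 CPM in *Pax7WT* and at 51.0, 50.5 and 44.8 CPM in *Pax7KR* cells. The genotypes overlapped, with a log2 fold change of −0.09 (SE 0.08, edgeR adjusted p = 0.998).

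*Dach1*, the corepressor of the network with reads, was at 17.0, 18.7 and 19.1 CPM in *Pax7WT* and at 17.2, 21.0 and 15.8 CPM in *Pax7KR* cells. Its highest and lowest values were both from *Pax7KR* libraries. The log2 fold change was −0.02 (SE 0.12, edgeR adjusted p = 0.998), and its sign depended on which library was left out.

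*Eya2* gave the result that depended most on how reads were counted. In reads it was at 13.9, 13.8 and 14.6 CPM in *Pax7WT* and at 12.0, 9.97 and 13.3 CPM in *Pax7KR* cells, on 238 to 377 reads per library. Every *Pax7KR* value lay below every *Pax7WT* value, and the log2 fold change was −0.26 (SE 0.13, edgeR adjusted p = 0.992, with an unadjusted value of 0.0673). In TPM the same gene was at 21.4, 17.5 and 16.0 in *Pax7WT* cells and at 9.27, 7.84 and 10.6 in *Pax7KR* cells. The mean TPM was thus 18.3 ± 2.76 (SD, n = 3) against 9.24 ± 1.39 (SD, n = 3), a much wider gap than in reads.

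The reads and the TPM of *Eya2* parted at the short transcript shown above. ENSMUST00000128280 was assigned 38.9, 13.9 and 9.3 reads in *Pax7WT* libraries and 0 reads in each *Pax7KR* library. Its effective length, the number of positions from which a fragment can come, was 194 to 198 bases, so these few reads made up 11.7, 6.39 and 3.74 TPM. The 2 coding transcripts together held 331.9, 218.4 and 274.6 reads in *Pax7WT* and 275.0, 232.8 and 269.4 reads in *Pax7KR* libraries. In TPM the coding transcripts were at 8.97, 8.87 and 9.79 in *Pax7WT* and at 9.27, 7.37 and 9.49 in *Pax7KR* libraries. The coding level therefore overlapped between the genotypes, at 9.21 ± 0.509 TPM and 8.71 ± 1.16 TPM (SD, n = 3 each).

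**Figure D3:**
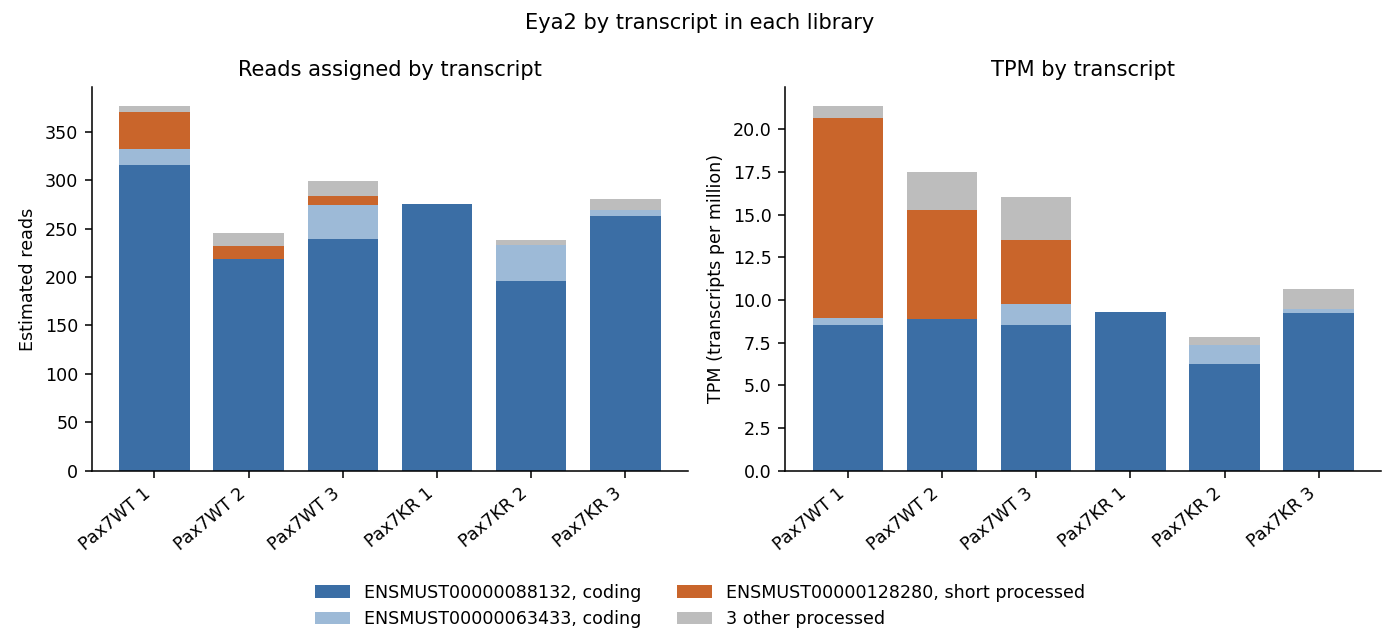
*Eya2* in each library by transcript, as estimated reads (left) and as TPM (right), stacked by transcript. The short processed transcript is a thin band of 9.3 to 38.9 reads in the *Pax7WT* libraries but 3.74 to 11.7 TPM, and it is absent from the *Pax7KR* libraries. The coding transcripts together lie at 7.37 to 9.79 TPM in all 6, and at 218.4 to 331.9 in reads, which are not scaled for depth.

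With a correction for length, the call for *Eya2* depended on this transcript. A length offset corrects each gene for the average length of its transcripts in each library, and the average effective length of *Eya2* was 1251 bases in *Pax7WT* and 2134 bases in *Pax7KR* libraries. This ratio of 1.71 was exceeded, in either direction, by 0.793% of the genes tested, and the other 7 network genes had ratios from 0.982 to 1.03. With the offset the log2 fold change of *Eya2* was −1.05. DESeq2 then called it (adjusted p = 0.000227), among 0.334% of the genes to which it gave an adjusted p, whereas edgeR with the same offset did not (adjusted p = 0.601, with an unadjusted value of 0.000105). Without ENSMUST00000128280 alone, the log2 fold change with the offset was −0.32 in edgeR (adjusted p = 0.961) and −0.31 in DESeq2 (adjusted p = 1.00). When *Eya2* was summed over its 2 coding transcripts, the log2 fold change was −0.14 with the offset in both tools, and the adjusted p was 0.988 in edgeR and 1.00 in DESeq2. Without the offset the coding transcripts also gave −0.14 (SE 0.13, edgeR adjusted p = 0.998). These 2 ways of leaving out transcripts were chosen after seeing the data.

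**Figure D4:**
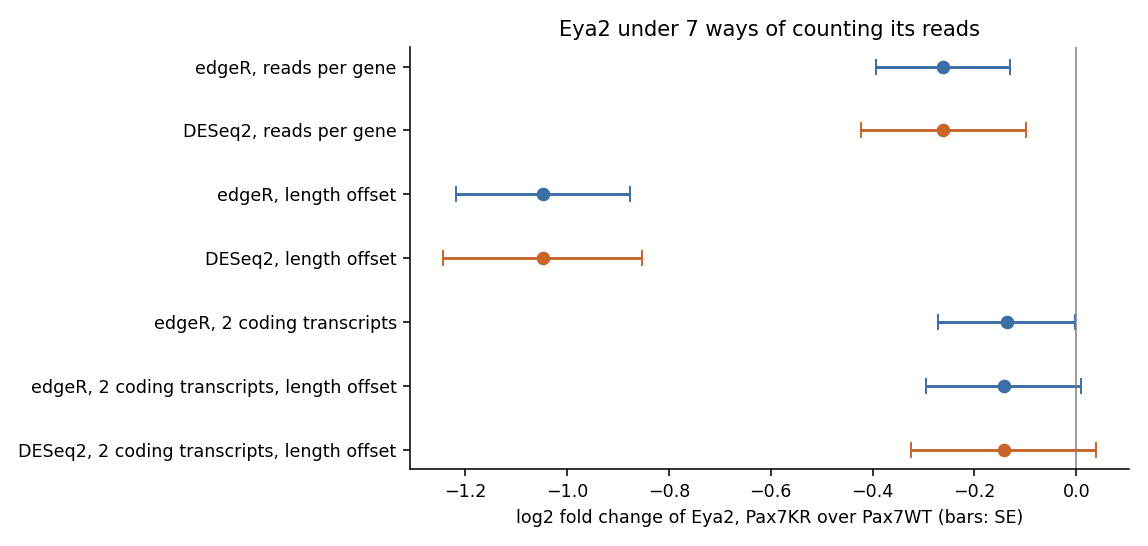
Log2 fold change of *Eya2* (*Pax7KR* over *Pax7WT*), with its standard error as a bar, under 7 ways of counting its reads, for edgeR in blue and DESeq2 in orange. It lies at −0.26 from reads per gene, at −1.05 with the length offset and at −0.14 when only the 2 coding transcripts are summed, with or without the offset.

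Tested by transcript over the whole table, 0 transcripts, or 0% of 54853, had an adjusted p under 0.1 in edgeR. In the same fit 2197, or 4.01%, had an unadjusted p under 0.05. The common biological coefficient of variation was 75.02% by transcript, against 13.75% by gene, so differences between transcripts were harder to detect. Of the 52 annotated transcripts of the network genes, 39 had reads and 31 were tested, of which 2 had an unadjusted p under 0.05. Both were processed transcripts of *Eya2*. They passed the read filter only through *Pax7WT* libraries, where they were high, so their p-values and this count are a description only. ENSMUST00000128280 had an unadjusted p of 0.00420 and an adjusted p of 1.00 from edgeR. Against a floor of 3 reads per *Pax7KR* library, the mean of the *Pax7WT* libraries was 6.68-fold higher. That is not a lower bound, since the floor covers counting error only. It leaves out the error of read assignment and the spread of the *Pax7WT* libraries (0.888 ± 0.510 CPM, SD, n = 3). ENSMUST00000150638 was assigned 6.2, 12.7 and 1.4 reads in *Pax7WT* libraries and 0 in all *Pax7KR* libraries (adjusted p = 1.00 from edgeR, with an unadjusted value of 0.0357). Over all tested transcripts, 89 (0.162%) had 5 or more reads in every *Pax7WT* library and 0 in every *Pax7KR* library, and 136 (0.248%) had the opposite pattern. The main coding transcript of *Eya2* had a log2 fold change of −0.12 (SE 0.19, edgeR adjusted p = 1.00).

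The share of *Eya2* reads on that main transcript was 83.6%, 89.2% and 79.9% in *Pax7WT* and 100%, 82.3% and 93.5% in *Pax7KR* libraries. Its mean was 84.2% ± 4.66 and 91.9% ± 8.97 (SD, n = 3 each), and the groups overlapped (exact permutation test, two-sided, p = 0.300). As a share of TPM it was 39.9%, 50.6% and 53.4% against 100%, 79.6% and 87.2%. Those groups did not overlap, and p = 0.1 is the smallest value an exact permutation test of 3 against 3 can give. How the reads were split between overlapping transcripts is an estimate whose error the files do not hold, and 36 sequences of 31 bases belong to ENSMUST00000128280 alone.

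Other network genes also had reads moving between transcripts, with overlapping genotypes. For *Eya4*, ENSMUST00000074366 was assigned 780.6, 0.0 and 477.5 reads in *Pax7WT* and 512.1, 443.8 and 451.0 reads in *Pax7KR* libraries. ENSMUST00000220299, which has the same coding sequence but an additional noncoding first exon, was at 41.5, 401.9 and 0.0 reads against 14.2, 93.8 and 41.2. The second *Pax7WT* library, where the former was at 0, was the one where the latter was high, and their sum in that library was 401.9 reads. The most abundant *Eya4* transcript, ENSMUST00000092665, kept to 69.5% to 72.2% of the gene's reads throughout.

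The *Dach1* transcript with the additional exon shown above was assigned 241.1, 19.6 and 69.9 reads in *Pax7WT* libraries. In *Pax7KR* libraries it had 51.7, 128.1 and 49.3 reads. Its share of the reads of both coding transcripts ran from 5.97% to 53.3%, and both ends were *Pax7WT* libraries. For *Eya1*, the share of ENSMUST00000027066, which holds the 15 bases shown above, in the sum of that transcript and ENSMUST00000168081 was 61.4%, 67.4% and 51.3% in *Pax7WT* and 49.4%, 72.3% and 74.8% in *Pax7KR* libraries. These groups overlapped as well. For *Six2*, ENSMUST00000163568 held 76.6%, 61.6% and 85.5% of the reads in *Pax7WT* and 73.5%, 84.5% and 93.0% in *Pax7KR* libraries, again overlapping. The other *Six2* transcript, ENSMUST00000024947, has 0 sequences of 31 bases of its own. The same holds for ENSMUST00000074366 of *Eya4* and ENSMUST00000069334 of *Dach1*, while ENSMUST00000027066 of *Eya1* has 4. Single transcripts held most reads of 2 genes, with 83.2% to 98.0% of *Eya3* on ENSMUST00000081726 and 89.3% to 96.6% of *Six4* on ENSMUST00000043208. *Six5* has 1 transcript.

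**Figure D5:**
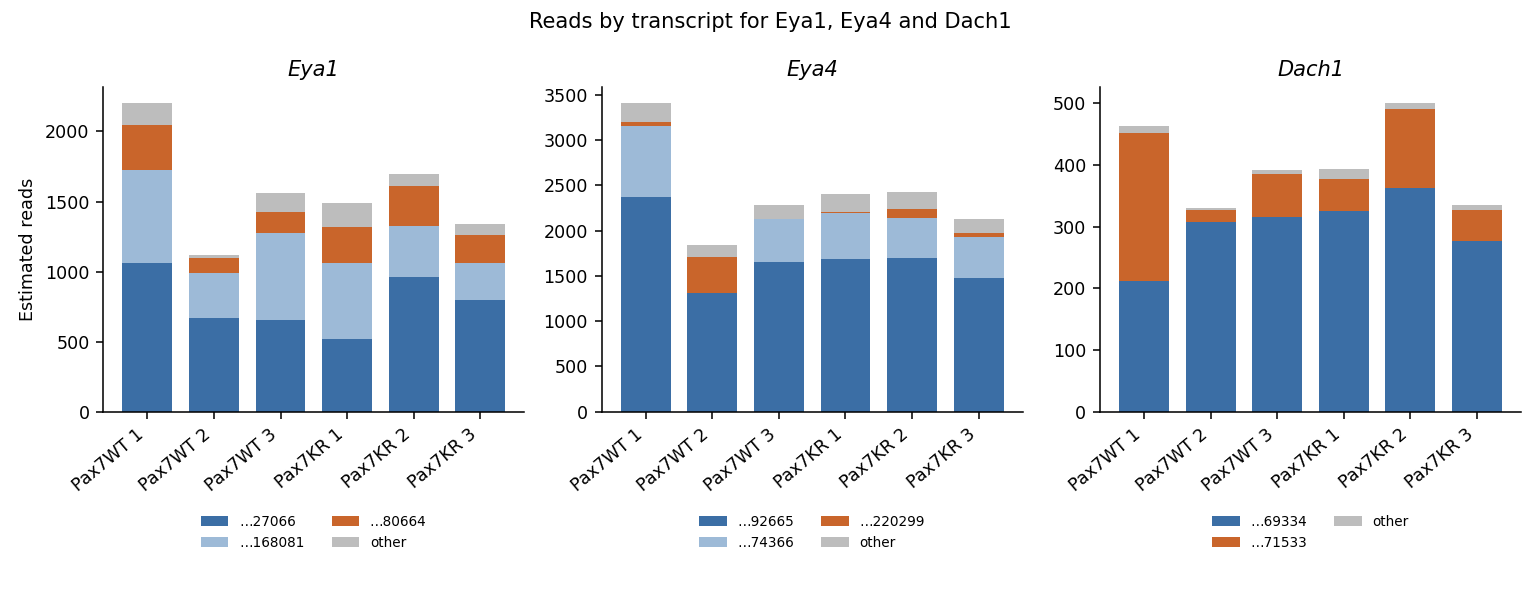
Estimated reads of *Eya1*, *Eya4* and *Dach1* in each library, stacked by transcript (the end of each transcript identifier is given). The *Eya4* band of ENSMUST00000074366 is missing in *Pax7WT* replicate 2, where that of ENSMUST00000220299 is at 401.9 reads, and the *Dach1* band of ENSMUST00000071533 is widest in *Pax7WT* replicate 1, at 241.1 reads.

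The genes of proteins that work with the network were read next, by their RNA alone. In a list of 16 partners and corepressors, all 16 were tested, 0 had an adjusted p under 0.1 and 0 an unadjusted p under 0.05 in edgeR. The median log2 fold change was −0.004, the same as over all genes, and in CPM the genotypes kept apart in 0 of the 16, beside the 10.3% of all genes tested. In TPM they did so in 1, *Hdac3*, a histone deacetylase named here after its values were seen, beside 12.5% of all genes. The most abundant were *Tle5*, a short Groucho-family protein, at 258 TPM, *Gnai2*, a G-protein subunit, at 246 TPM, *Tle3*, a Groucho corepressor, at 161 TPM, and *Ncor1*, a nuclear corepressor, at 142 TPM. Their log2 fold changes were −0.02, 0.02, −0.10 and 0.02, and that of *Ncor1* became −0.09 and that of *Gnai2* −0.01 with the length offset. The smallest unadjusted p was that of *Crebbp*, an acetyltransferase and coactivator, at 0.112, with a log2 fold change of 0.12 (SE 0.07, edgeR). *Sobp*, a SIX-binding protein, was at −0.13 (SE 0.08), *Tle1* at 0.17 (SE 0.11) and *Mcrs1* at −0.06 (SE 0.09). *Gnaz*, at 0.963 to 3.50 CPM, was at −0.41 (SE 0.43).

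Of 24 genes regarded as targets of SIX-EYA-DACH complexes, 22 were tested, 0 had an adjusted p under 0.1, and 3 had an unadjusted p under 0.05, all lower in *Pax7KR* cells (*Myc*, *Pax3* and *Ccnd1*), beside 4.68% of all genes tested in either direction. *Ccna1* had 0 reads, and *Sall1* did not pass the filter. The median log2 fold change of the list was −0.061, with 16 of 22 below 0, beside −0.004 and 51.0% over all genes tested. *Myc*, a growth regulator, was at 118, 102 and 114 CPM in *Pax7WT* and at 93.3, 93.3 and 104 CPM in *Pax7KR* cells, with a log2 fold change of −0.20 (SE 0.07, edgeR adjusted p = 0.992, with an unadjusted value of 0.0148). *Pax3*, the paralogue of *Pax7*, was at 17.7, 14.4 and 15.5 CPM in *Pax7WT* and at 12.7, 12.9 and 13.7 CPM in *Pax7KR* cells, a log2 fold change of −0.29 (SE 0.12, edgeR adjusted p = 0.992, with an unadjusted value of 0.0320). The genotypes of *Pax3* did not overlap in CPM, which was so for 1 of the 22 targets, a smaller share than the 10.3% of all genes tested, and in TPM for 0 of them. *Ccnd1*, which encodes cyclin D1, was at 82.2, 86.3 and 75.9 CPM against 81.0, 58.2 and 61.9 CPM, with a log2 fold change of −0.28 (SE 0.12, edgeR adjusted p = 0.992, with an unadjusted value of 0.0439). Its first *Pax7KR* library lay within the *Pax7WT* range, and its adjusted p passed the cut-off with no filter on low reads (0.0590).

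For the myogenic targets no difference passed the test. *Pax7* had a log2 fold change of −0.05 (SE 0.08), *Myf5* of 0.02 (SE 0.07) and *Myod1* of −0.13 (SE 0.20). *Myog*, the differentiation factor with the MEF3 site shown above, was low, at 1.32, 3.56 and 1.80 CPM in *Pax7WT* and 1.09, 6.36 and 3.12 CPM in *Pax7KR* cells. Its log2 fold change of 0.68 (SE 0.67, edgeR adjusted p = 0.998) rested on *Pax7KR* replicate 2 and was −0.07 without it. The receptor gene *Met* was at −0.19 (SE 0.09), the neurotrophic factor gene *Gdnf* at −0.38 (SE 0.19) and the homeobox gene *Lbx1* at −0.08 (SE 0.07), with adjusted p of 0.992, 0.992 and 0.998 from edgeR. The most abundant targets, *Igfbp5* at 971 TPM and *Aldoa* at 705 TPM, had log2 fold changes of 0.01 (SE 0.09) and −0.03 (SE 0.06).

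The genes whose level across the 6 libraries was most like that of *Eya4*, by Pearson's r of log2(CPM + 1), were *Polr3f* (0.994), *Poc1b* (0.994), *Gm45716* (0.989), *Rpl17-ps5* (0.985) and *Cpne3* (0.984). These are the 5 highest of all genes tested, the libraries differ in depth, and *Gm45716* and *Rpl17-ps5* were low, at means of 1.63 and 0.228 CPM.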

How the data were processed

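RNA-sequencing libraries were made from 3 *Pax7WT* and 3 *Pax7KR* samples, grouped by their labels. The authors quantified reads with salmon (version 1.3.0, per the submitters' processing notes, which also list DESeq2 version 1.28.1) against GENCODE transcripts, using the GRCm38 genome sequence as decoys. The deposited values are estimated counts, TPM and effective lengths of each transcript. The authors' table of their own comparison (fold changes and p-values) was not used.

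Of 140992 transcripts, 139791 (99.15%) were matched by identifier to an earlier GENCODE release of the same build, which gave gene names and coordinates; 0.592% to 0.634% of the reads of a library were unmatched. Estimated counts were summed per gene (or kept per transcript), rounded, and filtered to 5 or more reads in 2 or more libraries. The test was edgeR's quasi-likelihood test (version 4.0.16, robust, TMM normalization, genotype only), with Benjamini-Hochberg adjustment over all features tested and a cut-off of 0.1. The SE is the log2 fold change divided by the square root of F. The edgeR test, by gene and by transcript, was also run on simulated counts with known fold changes. DESeq2, the length offsets, the transcript shares and the motif search were not tested in this way. TPM are as deposited, summed per gene. DESeq2 (version 1.42.0) gave an adjusted p to 13486 genes with the length offset. Shared sequence was measured in 31-base words: at most 1.28% of those of a network gene occur in other genes. *Aldoa* is listed under more than 1 gene identifier, and the one with more reads was used. Chi-square per gene was 10.2 to 23.3 over the 15 library pairs, so none was a copy.

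Alternatives were RLE normalization, DESeq2, length offsets in edgeR and DESeq2, no filter, 10 or more reads in every library, a replicate block and leaving out each library. Members and lists were chosen with earlier results of these data known. The text names all network genes, and of each list up to 6 with the smallest unadjusted p, the 4 highest in TPM, and *Pax7*, *Myod1*, *Myog* and *Myf5*.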

Additional observations from a re-analysis of the deposited data

How the results depend on the processing

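The number of genes called was 0 in edgeR and stayed 0 with RLE normalization, with the edgeR length offset and with 10 or more reads in every library. It was 30 with DESeq2, 45 with DESeq2 and the length offset, 157 with no filter on low reads, and 1 to 32 with each library left out, the highest without *Pax7KR* replicate 3. Network genes with an unadjusted p under 0.05, 0 of 8 in the main test, numbered 1 with DESeq2 (*Six2*), 2 with the length offset in edgeR and also in DESeq2 (*Six2* and *Eya2*), 2 with no filter (*Six2* and *Eya4*), and 0 to 3 with each library left out. Of all genes tested, 3.16% to 6.19% were under 0.05 in these fits. The 3 were *Six2*, *Eya1* and *Eya4*, without *Pax7WT* replicate 2, where that share was 6.19%, while *Six4* without *Pax7WT* replicate 3 and *Eya2* without *Pax7KR* replicate 3 were the others. Transcripts called numbered 8 with no filter, and 0 to 1 with each library left out (1 without *Pax7KR* replicate 1). Same-numbered samples of the genotypes did not deviate together (correlations of 0.00, 0.04 and −0.06). This shows no strong shift common to such samples, but it cannot show whether they were paired, which the labels do not state. With a replicate block, 13 genes and 0 transcripts were called, 1 network gene had an unadjusted p under 0.05 (*Six2*, log2 fold change −0.34, adjusted p = 0.617 in edgeR), and no call of a named gene changed. The cause was not tested.

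Of 110 alternative values of the 8 network genes, 105 neither reversed their direction nor changed their side of the cut-off. Values that round to 0.00 are counted among these. They were *Six4* without *Pax7WT* replicate 1, and *Dach1* with the length offset in both tools and without *Pax7WT* replicate 2. *Six2* passed with no filter, *Eya2* with DESeq2 and the length offset (but not when ENSMUST00000128280 was left out, at −0.31), and *Dach1* changed sign in 3 fits that left out 1 library (range −0.14 to 0.07). The share of *Eya2* on its main transcript was 7.69 percentage points higher in *Pax7KR* libraries by reads (3.65 to 12.5 with each library left out) and 41.0 points by TPM. Of 273 values of 21 named partners and targets, 11 changed sign. With the length offset these were *Ncor1* (−0.09 in both tools) and *Gnai2* (−0.01 in both). With libraries left out the ranges were −0.06 to 0.03 for *Tle5*, −0.04 to 0.08 for *Gnai2*, −0.07 to 1.18 for *Myog*, −0.01 to 0.08 for *Myf5*, −0.11 to 0.01 for *Pax7* and −0.08 to 0.06 for *Igfbp5*. By transcript they were −0.22 to 0.05 for ENSMUST00000088132, −2.24 to 0.95 for ENSMUST00000063433 and −0.09 to 5.56 for ENSMUST00000150669. Depth limits the short *Eya2* transcript, at 0 to 38.9 reads per library.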
